A study of Mus musculus with 2 samples.

Results

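The genes for the proteins of the cytosolic ribosome were compared between a control and a USP21 knockdown library of mouse embryonic stem cells (ESCs). They were chosen by symbol: rows whose name begins with Rps or Rpl and a digit, Rplp0, Rplp1, Rplp2 and Rpsa, without the Rps6 kinases, Rps19bp1 and rows named as pseudogenes. The rule matched 86 rows of 23889. Rps27 was summed with its duplicate Rps27rt, which left 85 genes of 23888, and all 85 passed the filter on low values (0.1 FPKM or more in either library), as did 15315 genes in all. Of the 85 genes, 77 encode canonical ribosomal proteins, 31 of the small (40S) subunit and 46 of the large (60S) subunit. The remaining 8, Rps27l, Rps4l, Rpl3l, Rpl7l1, Rpl10l, Rpl22l1, Rpl36al and Rpl39l, are paralogues or related proteins. The rule leaves out 3 of the 80 canonical proteins for their symbols, among them Fau and Gnb2l1 (Rack1), which are described separately.

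RNA was sequenced from E14 cells, an ESC line that the labels derive from a 19/Ola mouse, grown without feeder cells on gelatin in serum medium with leukaemia inhibitory factor. The cells were transfected with control shRNA (genotype given as normal) or with USP21 shRNA (genotype given as USP21 knockdown) and harvested after 3 days. The labels do not name the shRNA sequence that was used. Each group was 1 library from 1 cell line, so no difference below has a replicate check or a test, and every statement compares these libraries and not the conditions. Values are fragment numbers scaled to transcript length and to library size (FPKM), and the log2 ratio is the USP21 shRNA value over the control value after 0.1 was added to both.

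Usp21, the deubiquitinase targeted by the shRNA, was at 26.2 FPKM in the control and 3.49 FPKM in the USP21 shRNA library (log2 ratio -2.87). Pou5f1, the gene for Oct4, was at 868 and 752 FPKM, and Nanog at 467 and 258 FPKM, and the 10 ESC markers had a median log2 ratio of -0.23, with 8 below 0. Below 0 were also 49.5% of all genes tested and 74.3% of the genes outside the family at 100 FPKM or more. Nanog was the lowest of the 10 markers (log2 ratio -0.86), and Fgf4, at 54.8 and 74.0 FPKM, the highest (log2 ratio 0.43). Of 10 fibroblast markers 6 passed the filter, with a median of -0.11. The collagen gene Col3a1 and Dcn, Lum and Postn did not pass. Among those that passed, the collagen genes Col1a2 and Col1a1 were at 0.113 and 0.167 FPKM and at 0.801 and 0.560 FPKM. Pdgfrb was at 1.65 and 1.14 FPKM and Fbn1 at 1.74 and 2.07 FPKM. The 6 lay on both sides of 0, from Thy1, at 17.3 and 5.29 FPKM (log2 ratio -1.69), to Pdgfra, at 2.48 and 4.22 FPKM (log2 ratio 0.75). The part that these marker differences have in the values below was not tested. In bulk RNA, fewer cells of a type and less RNA per cell cannot be told apart.

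Each ribosome holds 1 copy of nearly every one of these proteins, with the stalk proteins as the exception, so their genes are expressed together and at high levels in growing cells. Many of their mRNAs are terminal oligopyrimidine (TOP) mRNAs: transcription starts at a C that is followed by an unbroken run of C and T, a tract through which mTOR and the RNA-binding protein Larp1 set how well the mRNA is translated. Mammalian genomes also carry many processed pseudogenes made from these abundant mRNAs, which matters for how short reads are assigned.

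A minority of the canonical genes show, at an annotated start site, the tract that the family is known for. RefSeq windows from 250 bases before to 50 bases after the annotated start (GRCm38.p6) were matched by symbol for 57 of the 77 canonical genes and 64 of the 85 genes. A start at C followed by at least 4 C or T was found for 13 of the 57 (22.8%), against 338 of 11297 other genes tested (2.99%) and 2.5% of all 32851 promoters of the table. The sequences below run from 15 bases before to 15 bases after the annotated start, with the tract in capitals; they are 8 of the 13 genes with a tract, chosen to span the range of their log2 ratios, and 2 genes without a tract at the annotated start, Rpl26 and Rps13, which had the lowest and the highest log2 ratio of the canonical genes.
Rpl35, chr2:39005117-39005146, minus strand: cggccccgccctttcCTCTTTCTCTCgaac
Rpl35a, chr16:33056467-33056496, plus strand: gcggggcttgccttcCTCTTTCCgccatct
Rps18, chr17:33955651-33955680, minus strand: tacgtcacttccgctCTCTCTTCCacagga
Rpl28, chr7:4792950-4792979, plus strand: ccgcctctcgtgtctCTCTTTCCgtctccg
Rps6, chr4:86857353-86857382, minus strand: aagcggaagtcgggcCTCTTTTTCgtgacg
Rps21, chr2:180257364-180257393, plus strand: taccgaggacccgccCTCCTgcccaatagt
Rpl15, chr14:18270972-18271001, minus strand: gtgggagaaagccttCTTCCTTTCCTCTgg
Rplp2, chr7:141447636-141447665, plus strand: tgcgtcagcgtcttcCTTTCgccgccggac
Rpl26, chr11:68901551-68901580, plus strand: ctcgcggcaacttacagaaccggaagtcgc
Rps13, chr7:116334176-116334205, minus strand: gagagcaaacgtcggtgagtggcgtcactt

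The other 5 genes with the tract were Rpl14, Rpl38, Rps10, Rps15a and Rps27. Some genes have more than 1 annotated start, and a gene was counted if any of its windows matched, whereas shares of all promoters are per window. Rpl35a and Rps21, shown above, also have annotated starts without a tract. A tract began within 10 bases of an annotated start in 34 of the 57 genes (59.6%), against 36.9% of other genes. No tract at the annotated start was found among 68 mitochondrial ribosomal protein genes, 42 proteasome genes or 36 ribosome biogenesis genes with a promoter in the table. At the 2.99% of other genes tested, sets of these sizes would hold few. The letters CCGGAAG are a core of ETS factor motifs such as that of Gabpa. They were found on either strand in 24 of the 57 genes (42.1%), in 17.7% of other genes tested and in 8.9% of all promoters. The share was 36.8% for mitochondrial ribosomal protein genes, 35.7% for proteasome genes, 30.6% for ribosome biogenesis genes and 24.8% for other genes at 100 FPKM or more. AAGATGG, the core of the Yy1 motif, was in 9 of the 57 (15.8%), against 7.8% of other genes tested and 6.3% of all promoters, and in 19.1% of mitochondrial ribosomal protein and 19.0% of proteasome genes. The TATA box letters TATAAA were in 5 of the 57 (8.8%), those of Rps2, Rps28, Rpl36a, Rpl39 and Rplp0, against 5.5% and 8.3%. CCGGAAG and AAGATGG were searched on both strands, and TATAAA only on the strand of the gene. A match of CCGGAAG on the other strand, read as CTTCCGG, can overlap a tract. Matches could lie anywhere in the window, also after the annotated start, as TATAAA does in Rpl36a. A match is a description of the window and not a bound site.

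The ribosomal protein genes were among the most abundant mRNAs of both libraries. They made up 69 of the 100 highest genes in the control and 65 in the USP21 shRNA library, and their FPKM summed to 163085 and 124131, which was 26.6% and 22.9% of the sum over all genes. The canonical genes ran from Rpl22 (231 FPKM) to Rplp1 (5773 FPKM) in the control, with a median of 1886 FPKM, and from Rpl22 (159 FPKM) to Rplp1 (4143 FPKM) in the USP21 shRNA library, with a median of 1417 FPKM. The spread among them was of like size: the highest gene was 25 times the lowest in the control and 26.1 times in the USP21 shRNA library, with coefficients of variation of 52.8% and 54.7%. The order of the genes was also close in both libraries (Spearman's rho 0.98 across 77 genes, which share both libraries and the same annotation). In the control 68 canonical genes were at 1000 FPKM or more, and in the USP21 shRNA library 58 were.

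The highest genes encode a stalk protein and 4 proteins of the small subunit. Rplp1, an acidic protein of the stalk that recruits elongation factors, was at 5773 FPKM in the control and 4143 FPKM in the USP21 shRNA library (log2 ratio -0.48). Rps29 was at 4800 and 3945 FPKM (log2 ratio -0.28), and Rps2, which lines the mRNA entry channel, at 4465 and 3566 FPKM (log2 ratio -0.32). Rps12 was at 4344 and 3586 FPKM (log2 ratio -0.28), and Rps28, near the mRNA exit, at 4157 and 3589 FPKM (log2 ratio -0.21). All 5 were higher in the control library than in the USP21 shRNA library.

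**Figure D1:**
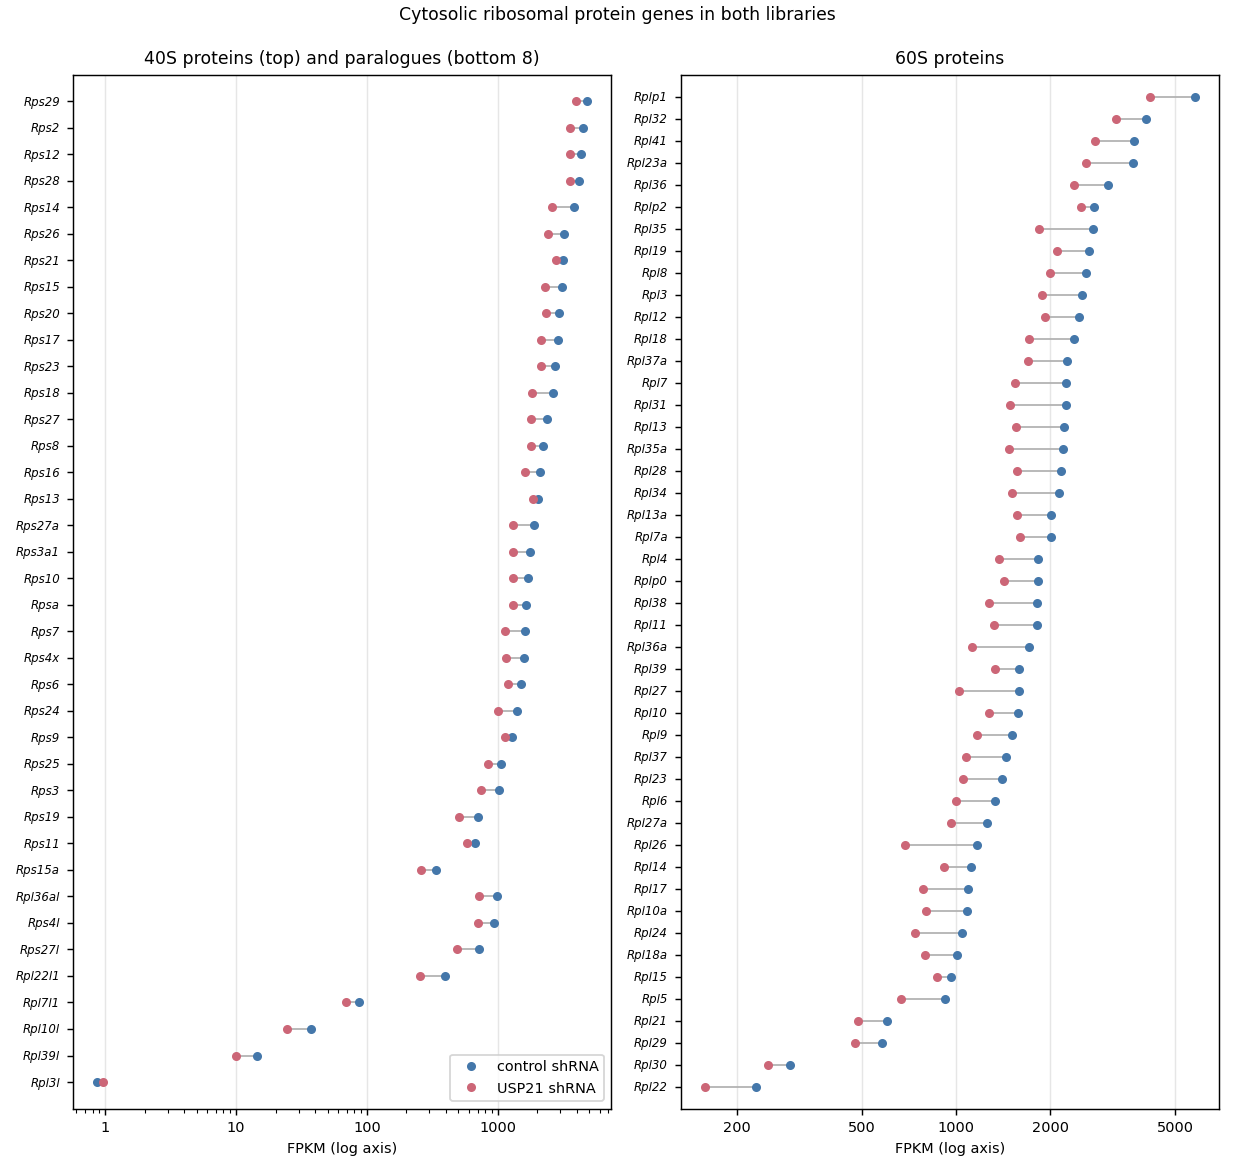
FPKM (log axes) of 84 of the 85 genes in the control shRNA (blue) and USP21 shRNA (red) library, joined by a grey line, with the 40S genes above the 8 paralogues on the left and the 60S genes on the right, sorted by control FPKM. The red point lies to the left of the blue point for every gene drawn but Rpl3l, and the distance is small beside the range of levels from Rpl22 at 231 FPKM to Rplp1 at 5773 FPKM in the control.

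At the low end stood paralogues. Rpl39l was at 14.4 and 9.98 FPKM (log2 ratio -0.52), and Rpl10l, a retrogene known from testis, at 37.5 and 24.3 FPKM (log2 ratio -0.62). Rpl7l1 was at 87.0 and 68.7 FPKM (log2 ratio -0.34), and Rpl3l, known from striated muscle, at 0.869 and 0.966 FPKM (log2 ratio 0.14), the only gene of the 85 with a higher value in the USP21 shRNA library. Of the canonical genes the lowest were Rpl22, at 231 and 159 FPKM (log2 ratio -0.54), and Rpl30, at 295 and 252 FPKM (log2 ratio -0.23). The value of Rpl30 is uncertain, because a pseudogene with much of the same sequence took a larger value, as described below.

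The family lay lower as a whole in the USP21 shRNA library, by a modest and even amount. Over the 85 genes the median log2 ratio was -0.41, with quartiles of -0.50 and -0.33 and an SD across genes of 0.136, whereas the 15315 genes tested had a median of 0.005, quartiles of -0.25 and 0.27 and an SD of 0.530. A log2 ratio below 0 was found for 84 of the 85 genes and for 77 of the 77 canonical genes, against 49.5% of all genes tested. At least 1.5-fold lower were 6 of the 85 genes, or about the same share as the 8.83% of all genes tested, and none was at least 1.5-fold higher, against 10.2%. None of the 85 was at least 2-fold lower or at least 2-fold higher, against 2.99% and 3.4% of all genes tested. The values of the family thus lay in a narrow range, all but 1 below 0 on this scale, with few large differences. Other genes at like levels also varied less than all genes tested. At 1000 FPKM or more the SD was 0.118 for 68 ribosomal protein genes and 0.189 for 29 other genes. None of either group was at least 2-fold lower or higher.

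Highly expressed genes of other kinds leaned the same way, less far. Of the 891 other genes at 100 FPKM or more in at least 1 library, 74.3% were below 0, with a median log2 ratio of -0.16, and 4.6% were at least 1.5-fold lower; of the 81 ribosomal protein genes at that level all 81 were below 0, with a median of -0.41, and 5 were at least 1.5-fold lower. At 1000 FPKM or more, 28 of 29 other genes were below 0, with a median of -0.22 and a range from -0.64 to 0.13, beside 68 of 68 ribosomal protein genes with a median of -0.41 and a range from -0.76 to -0.13. Among those 29 were the 3 canonical proteins outside the symbol rule and 2 ribosomal protein pseudogenes, and without these 5 the median of the other 24 was -0.19. The ranges overlapped at both levels.

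**Figure D2:**
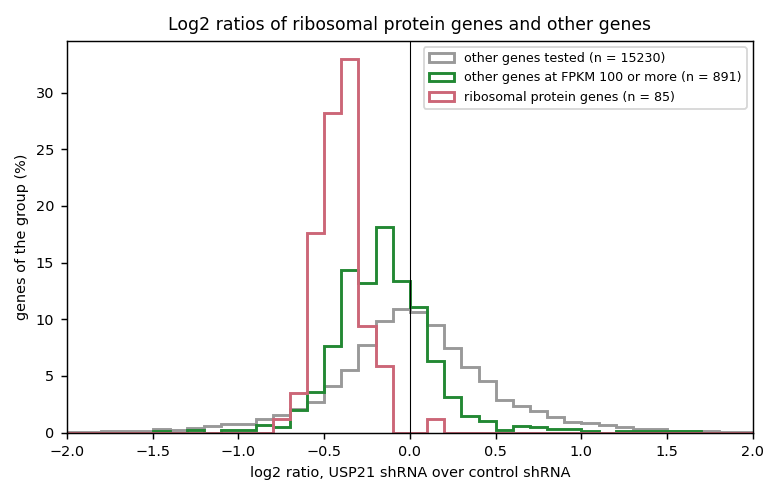
Share of genes (%) in bins of 0.1 of the log2 ratio of USP21 shRNA over control shRNA, for the 85 ribosomal protein genes (red), the 891 other genes at FPKM 100 or more (green) and all other genes tested (grey), of which 77 lie outside the axis. The red distribution is narrow and centred at -0.41, inside the lower side of both others, which are centred at -0.16 and close to 0.

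The direction for single genes depends on how the libraries are scaled. FPKM over all genes summed to 613617 in the control and 543206 in the USP21 shRNA library, and the ribosomal protein genes accounted for 55.3% of that difference; the sum over all other genes was 450532 and 419075. Scaled to equal sums (TPM), each log2 ratio is 0.18 higher. The median of all genes tested then lies at 0.18 with 32.0% of them below 0, and the median of the ribosomal protein genes at -0.23, with 80 of 85 below 0. Rps13, Rplp2, Rpl15 and Rps21 were then no longer below 0. Because this scaling moves all log2 ratios alike, the distance of the family from the median of all genes stayed at -0.41 by construction.

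The genes of both subunits lay below 0. The 46 genes of the 60S subunit had a median log2 ratio of -0.42 and a range from -0.76 to -0.14, and the 31 genes of the 40S subunit a median of -0.38 and a range from -0.58 to -0.13. At least 1.5-fold lower were 4 of the 46 and none of the 31, against 8.83% of all genes tested. The medians differed by less than the SD across genes of either subunit, 0.123 for 60S and 0.113 for 40S. In level the 40S genes had medians of 2096 and 1729 FPKM and the 60S genes of 1813 and 1349 FPKM.

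The 6 genes at least 1.5-fold lower were led by Rpl26, a protein at the exit of the peptide tunnel, at 1163 FPKM in the control and 685 FPKM in the USP21 shRNA library (log2 ratio -0.76). Rpl22l1, the paralogue of Rpl22, was at 392 and 252 FPKM (log2 ratio -0.64). Rpl27 was at 1584 and 1022 FPKM (log2 ratio -0.63). Rpl10l, given above, is 1 of the 6, and the other two were Rpl36a, at 1704 and 1125 FPKM (log2 ratio -0.60), and Rpl31, another protein near the tunnel exit, at 2236 and 1487 FPKM (log2 ratio -0.59). No sharp step separated them from the next genes: Rps14, Rps27l, Rpl35a and Rpl35 had log2 ratios of -0.58, -0.57, -0.57 and -0.57.

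At the other end were genes of both subunits. Rps13 was at 2037 and 1856 FPKM (log2 ratio -0.13), and Rplp2, the stalk partner of Rplp1, at 2752 and 2501 FPKM (log2 ratio -0.14). Rpl15 was at 963 and 868 FPKM (log2 ratio -0.15), Rps21 at 3168 and 2805 FPKM (log2 ratio -0.18) and Rps9, of the decoding region, at 1280 and 1130 FPKM (log2 ratio -0.18). All 5 were below 0 on the FPKM scale, and Rps13 differed by 8.86% where Rpl26 differed by 41.1%.

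Pseudogene rows bear on Rpl26 and Rpl30. Gm15772, a processed pseudogene that shares 69.8% of the 31-base words of the Rpl26 mRNA, was listed at 2813 FPKM in the control and 1882 FPKM in the USP21 shRNA library (log2 ratio -0.58), more than Rpl26 itself. Summed with it, Rpl26 was at 3976 and 2567 FPKM (log2 ratio -0.63), level with Rpl27. Gm12191, which shares 53.1% of the words of Rpl30, was at 1309 and 918 FPKM (log2 ratio -0.51), and the sum with Rpl30 was at 1604 and 1169 FPKM (log2 ratio -0.46), close to the family median. Of the 12 pseudogene rows that share at least 10% of a member's words, the other 10 were at most at 3.84 FPKM in the control and 4.51 FPKM in the USP21 shRNA library. How fragments that match several places were assigned is not given in the sources used here.

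Such sharing is the rule in this family. In the GENCODE M21 transcripts, a median of 57.7% and at most 98.7% (Rps27) of the 31-base words of a canonical gene's mRNA also occur in another gene, and 47 of the 77 share at least 50%. Each of the 77 shares words with at least 1 annotated pseudogene, the median gene with 15 and Rpl7a with 161. The 7 genes that share under 25% (among them Rpl8, at 2595 and 1991 FPKM) had a median log2 ratio of -0.38 and a range from -0.54 to -0.26, and the 25 genes that share at least 75% a median of -0.43. Across the 77 genes the log2 ratio and the shared percentage had a Spearman's rho of -0.12.

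By place in the ribosome, each group lay below 0 and the groups overlapped. The stalk of the 60S subunit, where the factors of elongation bind, is built from Rplp0, Rplp1, Rplp2 and Rpl12. Rplp0 was at 1820 and 1417 FPKM (log2 ratio -0.36) and Rpl12 at 2457 and 1927 FPKM (log2 ratio -0.35), and with Rplp1 (-0.48) and Rplp2 (-0.14) the median of the 4 log2 ratios was -0.36. Rplp1 and Rplp2, which form dimers on the stalk, thus stood at different ends of the group. Rpl5 and Rpl11 bind 5S rRNA and, outside the ribosome, the p53 ligase Mdm2. Rpl5 was at 925 and 667 FPKM (log2 ratio -0.47) and Rpl11 at 1805 and 1326 FPKM (log2 ratio -0.44), so the pair lay side by side.

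The 8 proteins listed for the peptide exit tunnel had a median log2 ratio of -0.49, from Rpl26 at -0.76 to Rpl39, at 1586 and 1329 FPKM, at -0.26. Within it were also Rpl35, at 2734 and 1840 FPKM (log2 ratio -0.57), Rpl23a, at 3675 and 2605 FPKM (log2 ratio -0.50), and Rpl4, at 1828 and 1369 FPKM (log2 ratio -0.42). The genes of this group at least 1.5-fold lower were Rpl26 and Rpl31, named above, 2 of 8 against 8.83% of all genes tested. With Rpl26 summed with its pseudogene, its log2 ratio of -0.63 remained the lowest of the 8.

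The 6 proteins of the mRNA entry channel and decoding region of the 40S subunit had a median of -0.39, from Rps27a at -0.54 to Rps9 at -0.18. Rps3, at the entry, was at 1019 and 745 FPKM (log2 ratio -0.45). The 5 proteins around the mRNA exit also had a median of -0.39, from Rps14, at 3851 and 2576 FPKM (log2 ratio -0.58), to Rps28 at -0.21. Rpsa, of this group, which is also known as the laminin receptor, was at 1643 and 1301 FPKM (log2 ratio -0.34). Neither group had a gene past 1.5-fold. Rps6, the substrate of the S6 kinases, was at 1505 and 1205 FPKM (log2 ratio -0.32).

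The 18 genes mutated in Diamond-Blackfan anaemia, an inherited failure of red cell production, had a median log2 ratio of -0.48, all 18 below 0, and the other 59 canonical genes a median of -0.38. In this list Rpl26, Rpl27 and Rpl31, 3 of 18, were at least 1.5-fold lower, beside 1 of the other 59 and 8.83% of all genes tested. The pseudogene row described above bears on the value of Rpl26. Rpl15 was highest of the list, at -0.15. Rps19, the gene most often mutated in this disease, was at 705 and 502 FPKM (log2 ratio -0.49), and Rpl35a at 2197 and 1478 FPKM (log2 ratio -0.57). The list's values lay within the range of the other 59 canonical genes except for Rpl26 and Rpl27.

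Rps27a is made as a fusion with ubiquitin, which is then cut off, so it supplies ubiquitin along with a ribosomal protein. Rps27a was at 1886 FPKM in the control and 1300 FPKM in the USP21 shRNA library (log2 ratio -0.54). The polyubiquitin gene Ubb did not lie below 0, at 1118 and 1225 FPKM (log2 ratio 0.13). Fau, whose protein is made as a fusion with a ubiquitin-like domain, was at 1319 and 1080 FPKM (log2 ratio -0.29), and Gnb2l1 (Rack1), a scaffold on the head of the 40S subunit, at 2502 and 2009 FPKM (log2 ratio -0.32). Both lay within the range of the family.

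Among near-identical copies, only sums can be read with some confidence. Rps27 and Rps27rt encode the same 84 residues, and 98.7% of the 31-base words of the Rps27 mRNA also occur in another gene. That share counts all other genes, and the part held by Rps27rt alone is not given here. As deposited, Rps27 was at 110 and 8.64 FPKM and Rps27rt at 2265 and 1793 FPKM. The sum was at 2375 and 1801 FPKM (log2 ratio -0.40), of which the Rps27rt row held 95.4% and 99.5%. The log2 ratio of -3.66 for the Rps27 row alone therefore concerns a small share of the pair.

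Rpl36a and Rpl36al also encode identical proteins, of 106 residues. Rpl36al was at 981 and 723 FPKM (log2 ratio -0.44), and the pair summed to 2685 and 1848 FPKM (log2 ratio -0.54), with Rpl36al at 36.5% and 39.1% of the sum. Rpl10l differs from Rpl10 at 3 of 214 residues and made up 2.32% and 1.87% of their sum, while Rpl10 itself was at 1579 and 1277 FPKM (log2 ratio -0.31). Rpl39l differs from Rpl39 at 3 of 51 residues, and the log2 ratio of their sum was -0.26.

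The other paralogues differ more in sequence where this was computed. Rpl22 and Rpl22l1 are 70.3% identical, and here the paralogue was the more abundant of the pair, at 62.9% of the sum in the control and 61.4% in the USP21 shRNA library. Their sum was at 623 and 411 FPKM (log2 ratio -0.60). Rps4l was at 932 and 711 FPKM (log2 ratio -0.39) beside Rps4x at 1578 and 1152 FPKM (log2 ratio -0.45), and its likeness to Rps4x was not computed, since GENCODE M21 gave no protein-coding transcript for it. Rps27l, a p53-responsive relative of Rps27, was at 722 and 485 FPKM (log2 ratio -0.57). Rpl3 and Rpl3l are 76.2% identical, with Rpl3 at 2515 and 1876 FPKM (log2 ratio -0.42), and Rpl7 and Rpl7l1 40% identical, with Rpl7 at 2248 and 1537 FPKM (log2 ratio -0.55). No pair that holds at least 1 FPKM in both genes had log2 ratios on different sides of 0. Over the 8 paralogues the median log2 ratio was -0.48, with 7 below 0.

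Genes with roles around the ribosome lay closer to the median of all genes than the ribosomal proteins did. The 17 translation factors and other proteins with TOP mRNAs had a median log2 ratio of -0.22, with 16 below 0 and none past 1.5-fold. Eef1a1, the elongation factor that brings aminoacyl-tRNA, was at 7123 and 6276 FPKM (log2 ratio -0.18), Npm1 at 2972 and 2276 FPKM (log2 ratio -0.38) and Eif3e, the lowest, at 263 and 177 FPKM (log2 ratio -0.57). Hnrnpa1, the highest of them, was at 303 FPKM in both. Of the 11 genes of this list with a promoter in the table, 2 had a tract at the annotated start.

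Of 44 ribosome biogenesis factors 42 passed the filter, with a median of -0.15 and 33 below 0. The nucleolar proteins Ncl and Fbl were at 553 and 483 FPKM (log2 ratio -0.20) and at 290 and 285 FPKM (log2 ratio -0.02). The lowest was Imp4, of pre-rRNA processing, at 57.0 and 24.9 FPKM (log2 ratio -1.19), the only one past 1.5-fold, and the highest was Tsr1 at 0.18. Of 19 genes of the RNA polymerase I machinery, which transcribes rRNA, 18 passed, with a median of -0.09 and 12 below 0. They ran from Polr2k, at 84.7 and 60.3 FPKM (log2 ratio -0.49), to Polr1a, the largest subunit, at 26.4 and 35.4 FPKM (log2 ratio 0.42).

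The 15 regulators of ribosomal protein synthesis had a median of 0.14, with 5 below 0. Larp1, which binds the tract, was at 63.3 and 75.8 FPKM (log2 ratio 0.26) and Larp4 at 32.7 and 49.96 FPKM (log2 ratio 0.61), the only one at least 1.5-fold higher. Mtor was at 14.3 and 15.5 FPKM (log2 ratio 0.12), the S6 kinase gene Rps6kb1 at 21.8 and 27.4 FPKM (log2 ratio 0.33) and Myc at 26.7 and 22.8 FPKM (log2 ratio -0.22). The lowest was Rheb, the GTPase that activates mTOR, at -0.30. The regulators were thus spread on both sides of 0.

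Other large complexes served for comparison, and neither was matched to the family in level or transcript length. The 77 mitochondrial ribosomal protein genes, at a median of 57.7 FPKM in the control, had a median log2 ratio of -0.14, with 56 below 0, 2 at least 1.5-fold lower and a range from Mrpl17 at -0.87 to Mrpl16 at 0.50. Of 50 proteasome genes 48 passed, at a median of 136 FPKM, with a median log2 ratio of -0.17, 36 below 0, 2 at least 1.5-fold lower and a range from Psmb9 at -0.70 to Psma8 at 0.45. Both complexes lay between the cytosolic ribosomal protein genes and the median of all genes, at lower levels of expression.

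**Figure D3:**
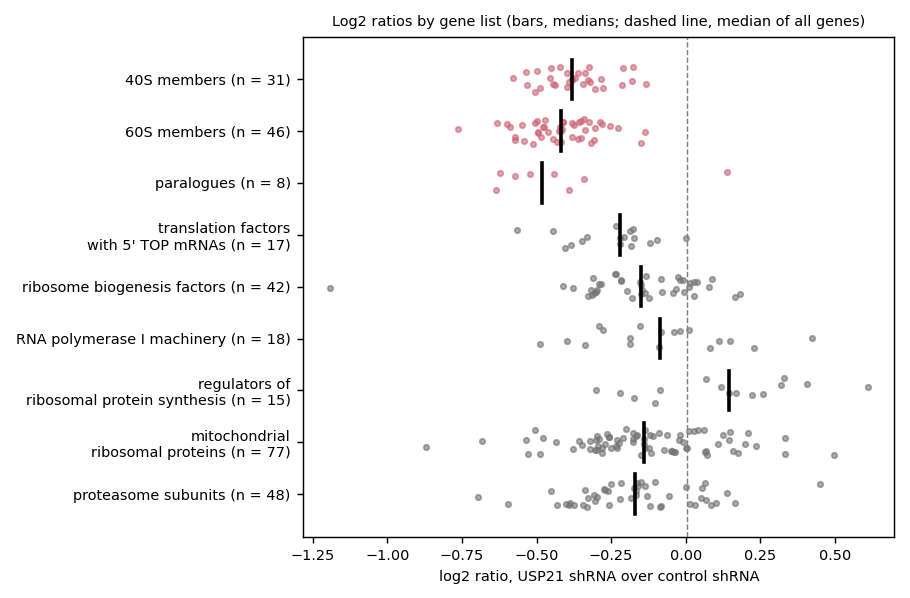
Log2 ratio of USP21 shRNA over control shRNA for each gene of the 3 groups of ribosomal protein genes (red) and of 6 other lists (grey), with a black bar at each median and a dashed line at the median of all genes tested. The medians of the red groups lie between -0.48 and -0.38, those of the grey lists between -0.22 and 0.14, and the points overlap.

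The ribosomal protein mRNAs are short, and over other genes the log2 ratio moved with length. GENCODE M21 gave a transcript length for 84 of the 85 genes and for 77 of the 77 canonical genes, which ran from 345 bases (Rps27) to 5179 bases (Rps15a) with a median of 830 bases, against a median of 2833 bases for 13839 other genes. Across 852 other genes at 100 FPKM or more, the log2 ratio and the length had a Spearman's rho of 0.33, and across the 77 canonical genes 0.06. These points share both libraries, and no p is given.

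Within each class of length the ribosomal protein genes had the lower median. Under 600 bases their median log2 ratio was -0.44 (25 genes), against -0.32 for 52 other genes at 100 FPKM or more. From 600 to under 1000 bases it was -0.39 (32 genes) against -0.26 (127 genes), and from 1000 to under 2000 bases -0.38 (22 genes) against -0.19 (308 genes). At 2000 bases or more it was -0.38 over 5 genes, against -0.07 over 365. Lengths are those of 1 annotated transcript per gene. The longest class holds Rps15a and Rps20, at 5179 and 3706 bases with coding sequences of 393 and 360 bases. Whether the transcripts in these cells had the annotated lengths was not tested. The ribosomal protein genes, unlike the other genes, were not held to 100 FPKM. The distance between the medians was smallest in the shortest class, where the other genes came nearest to the family. With a smooth correction of all genes for length, the median of the ribosomal protein genes was -0.22, with 70 of 84 below 0.

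**Figure D4:**
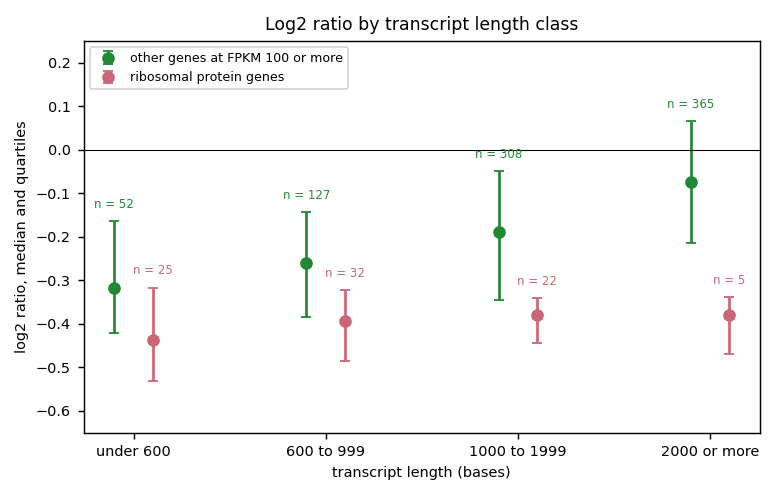
Median log2 ratio of USP21 shRNA over control shRNA (points) with quartiles (bars) in 4 classes of transcript length, for the ribosomal protein genes (red) and the other genes at FPKM 100 or more (green), with the number of genes at each. The red medians stay between -0.44 and -0.38, while the green medians run from -0.32 in the shortest class to -0.07 in the longest.

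Within the family, long and short or high and low genes had like log2 ratios. Rpl41, whose mRNA codes for 25 residues, was at 3702 and 2780 FPKM (log2 ratio -0.41), and Rpl4, the longest with 419 residues, had nearly the same log2 ratio, -0.42. Rps15a, with the longest annotated transcript, was at 338 and 260 FPKM (log2 ratio -0.38). FPKM divides by length, and the length used for the deposited values is not known. The Spearman's rho between log2 ratio and control FPKM was 0.01 across the 77 genes. The 13 genes with a tract at the annotated start had a median log2 ratio of -0.38 and a range from -0.57 (Rpl35a) to -0.14 (Rplp2), and the 44 without it a median of -0.42 and a range from -0.76 to -0.13. Whether the annotated starts were those used in these cells was not tested, so this split need not sort TOP mRNAs from others. Those with and without CCGGAAG had medians of -0.40 and -0.42.

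Many ribosomal protein genes carry small nucleolar RNAs (snoRNAs), which guide the modification of rRNA, in their introns. In GENCODE, 30 of the 77 canonical genes (39.0%) contain 58 snoRNAs on their strand, against 1.27% of 13839 other genes. The 30 host genes had a median log2 ratio of -0.34, from Rpl13 at -0.51 to Rps13 at -0.13, and the 47 others a median of -0.43, from -0.76 to -0.15. The ranges overlapped through most of their width. The canonical genes are spread over 19 chromosomes, with 14 on chromosome 7, and the 4 on chromosome X had a median of -0.38.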

How the data were processed

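FPKM per gene symbol was deposited by the authors for 1 control and 1 USP21 shRNA library of E14 cells. The submitters' processing notes name CASAVA 1.8.2, TopHat2 2.0.14, Cufflinks 2.2.1 and the mm9 genome. Their settings, the annotation, the handling of fragments that match several places, RNA selection and depth are not given in the sources used here, and the files hold no counts, so no interval from depth is given. The most common ratio of the smallest steps in low values put the control 1.23 times deeper than the USP21 shRNA library. Of the 1439 genes used, 53 held that most common ratio, so it is a rough estimate.

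Log2 ratios were computed with a pseudocount of 0.1, which understates differences of low genes, for genes at 0.1 FPKM or more in either library, and counted past 1.5-fold and 2-fold. No test was made with 1 library per group. The named genes were Usp21, members past 1.5-fold, the 5 highest and 5 lowest members and any below 1 FPKM, all stalk, 5S rRNA-binding, ubiquitin-coding and paralogous genes (a few items are not reported here), pairs at least 90% identical, and for each other list its extremes and at most 4 examples. Genes named outside this rule (those just short of 1.5-fold or nearest 0, and examples of sharing, length and pseudogene rows) were chosen after their values were seen. Members and lists were chosen with earlier results of these data known. Lengths, coding sequences (for protein identity), snoRNAs and shared 31-base words came from GENCODE M21 and promoters from RefSeq GRCm38.p6, matched by symbol. No coordinate was taken from mm9. Alternatives were other pseudocounts, filters, scalings, a lowess correction for length (span 0.3) and other choices of members. The calculation was tested on simulated data. Tools were Python 3.11.15, biopython 1.88, statsmodels 0.14.6 (lowess), scipy 1.17.1 (Spearman's rho), pandas 2.3.3, numpy 2.4.6 and matplotlib 3.10.9.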

Additional observations from a re-analysis of the deposited data

How the results depend on the processing

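Of 146 values under 14 alternatives, 132 stayed within 0.1 on the log2 scale, or within 1.5 times for a count, and on the same side of 0. Many of these values could hardly move. A change of scale shifts all log2 ratios alike, and the pseudocounts are small beside the values of most members. The count of 132 is therefore no measure of how robust the results are. The median log2 ratio of the ribosomal protein genes lay between -0.41 and -0.22. Scaled to equal sums (TPM) it was -0.23, with 1 gene at least 1.5-fold lower. With the lowess correction for length it was -0.22, with 70 of 84 genes below 0 and 0 genes at least 1.5-fold lower. Its distance from the median of all genes, -0.41 as reported, was then -0.21, and that of the TOP translation factors -0.17 (-0.23 as reported), closer to the family than before. The distance of the regulators was then 0.012 (0.14 as reported) and that of the mitochondrial ribosomal proteins -0.028 (-0.15 as reported). With only genes at FPKM 100 or more, the distance of the family was -0.22, that of the TOP translation factors -0.034 (-0.23 as reported), that of the proteasome genes -0.013 (-0.17 as reported), and those of the ribosome biogenesis factors and RNA polymerase I machinery changed sign, to 0.036 and 0.067 (-0.15 and -0.09 as reported). At FPKM 1000 or more, a filter chosen after seeing the data, it was -0.032, where 68 of the 97 genes are members. With Rps27 and Rps27rt apart, 1 gene was at least 2-fold lower. Adding every pseudogene row that shares sequence, also chosen after seeing the data, left the median at -0.41 with 6 genes at least 1.5-fold lower. For the filters, the median of all genes is over a different set of genes; for the length correction, the cause of the rest of the difference was not tested. No paired analysis was possible because each group holds 1 library. Without replicates or counts, the error of each log2 ratio is unknown.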

Other observations

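Rows named as pseudogenes of ribosomal proteins, which the symbol rule leaves out, were few and low. Rps19-ps3 was at 2.12 FPKM in the control and 1.93 FPKM in the USP21 shRNA library, Rps15a-ps4 at 1.19 and 1.38 FPKM, Rps15a-ps6 at 0.186 and 0.355 FPKM and Rpl14-ps1 at 0.190 and 0.178 FPKM. Rplp2-ps1 was at 1.12 FPKM in the control and listed at 0 in the USP21 shRNA library, and Rpl31-ps12 and Rpl34-ps1 were listed at 0 in both. Gm15772 and Gm12191, the pseudogenes with the sequence of Rpl26 and Rpl30, do not carry such a name.

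The promoter windows of the canonical genes held 3 further motifs at shares close to those of other genes tested. The E-box CACGTG was in 10.5% of the 57 genes, against 11.4%, the Sp1 core GGGCGG in 61.4%, against 66.7%, and the Nrf1 motif in 3.5%, against 2.1%.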
